A study of Mus musculus with 6 samples.

Results

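The transcripts of 5 genes were followed through a culture experiment on mouse blood stem and progenitor cells, namely the GATA transcription factor genes Gata1, Gata2 and Gata3, the GATA cofactor gene Zfpm1 and the basic helix-loop-helix factor gene Mitf. They were chosen by gene name, and every probe set (the group of short oligonucleotides that measures a transcript on the array) whose only annotated symbol was 1 of these names was taken. These are 5 of the 18193 genes with a probe set of their own, and they had 8 probe sets of 45037 that are not controls, 1 for Gata1, 2 for Gata2, 1 for Gata3, 2 for Zfpm1 and 2 for Mitf. All 8 passed a filter on the mean signal over all arrays and were tested, which does not show that each transcript was detected. Bone marrow of C57BL/6J mice was the source, sorted for c-Kit+Sca-1+Lin- (KSL) cells, which include stem cells and early progenitors of blood. In both groups the cells had grown for 7 days in serum-free medium with mouse cytokines on human umbilical vein endothelial cells as feeders, before KSL cells were sorted out again for Affymetrix 3′ arrays. One group of 3 arrays had PBS in the medium, and the other group of 3 had mD1R. The labels do not expand the name mD1R; as background, it is an engineered soluble Notch ligand: the receptor-binding region of mouse Delta-like 1, joined to a peptide that anchors it on endothelial cells. The question was which transcripts differed between KSL cells grown with and without this ligand. The labels call the replicates biological and do not say whether they came from separate animals, so p-values measure only the spread between these 3 samples per group, which may be technical.

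GATA factors bind the DNA word GATA through paired zinc fingers. Gata2 acts in blood stem cells, early progenitors, mast cells and basophils, and Gata1 in red cells, megakaryocytes, eosinophils and mast cells, where it can take over sites that Gata2 held before. Gata3 acts in T cells and innate lymphoid cells and is also active in some blood stem cells. Zfpm1, also called FOG1, does not bind DNA itself but docks on the amino-terminal finger of Gata1 or Gata2 and brings in the NuRD repressor complex. Mitf, best known from pigment cells, is needed for mast cells and acts with its relatives of the MiT/TFE family on osteoclast and lysosome genes.

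Values are log2 signals, so a difference of 1 is a 2-fold change. A difference was called when its adjusted p in limma was under 0.05, over all 27022 probe sets tested. Array medians lay between 6.07 and 6.42, and in 12.6% of the tested probe sets the groups differed past this threshold (6.13% higher and 6.5% lower with mD1R). The BioB hybridisation control, relative to the other hybridisation controls, split the arrays into 2 sets, called spike-in batches here. PBS replicate 1 and mD1R replicates 1 and 2 formed batch 1, and PBS replicates 2 and 3 and mD1R replicate 3 formed batch 2, so a within-batch difference always has 1 array on one of its sides. The Actb control probe sets had a 3′ to 5′ log2 difference of 0.20 to 0.27 with PBS and of 0.37 to 0.46 with mD1R, while for Gapdh the groups overlapped (-0.48 to -0.33 and -0.41 to -0.26), and the part of this in any result was not tested. The array of mD1R replicate 3 correlated with the PBS arrays at 0.91 to 0.94 across tested probe sets, against 0.85 to 0.88 for the other mD1R arrays. Of the positive markers of the gate, Kit was at 8.85 to 11.37 across the arrays, and the Sca-1 gene Ly6a was not analysed here. Genes of mature neutrophils, which the Lin- gate should remove, had high signals with PBS, such as Camp at 14.72 to 15.16. With mD1R some were high too. Camp was at 6.96, 11.97 and 14.98 in mD1R replicates 1, 2 and 3, and Mmp8 at 14.48 to 14.78.

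With mD1R, Gata2 and Mitf rose, and Gata1, Gata3 and Zfpm1 did not pass the test. Of the 8 probe sets, 3 passed as higher and 0 as lower, both Gata2 probe sets and the brighter Mitf probe set, beside 6.13% of all probe sets higher and 12.6% in either direction. In 4 of 8 the groups did not overlap, which was also so for 36% of all probe sets tested. These are bulk RNA samples, in which fewer cells of a type and less RNA per cell cannot be told apart. The plot of the 8 probe sets by array shows Gata2 and the brighter Mitf probe set separated between the groups and the Zfpm1 and Gata3 signals overlapping.

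**Figure D1:**
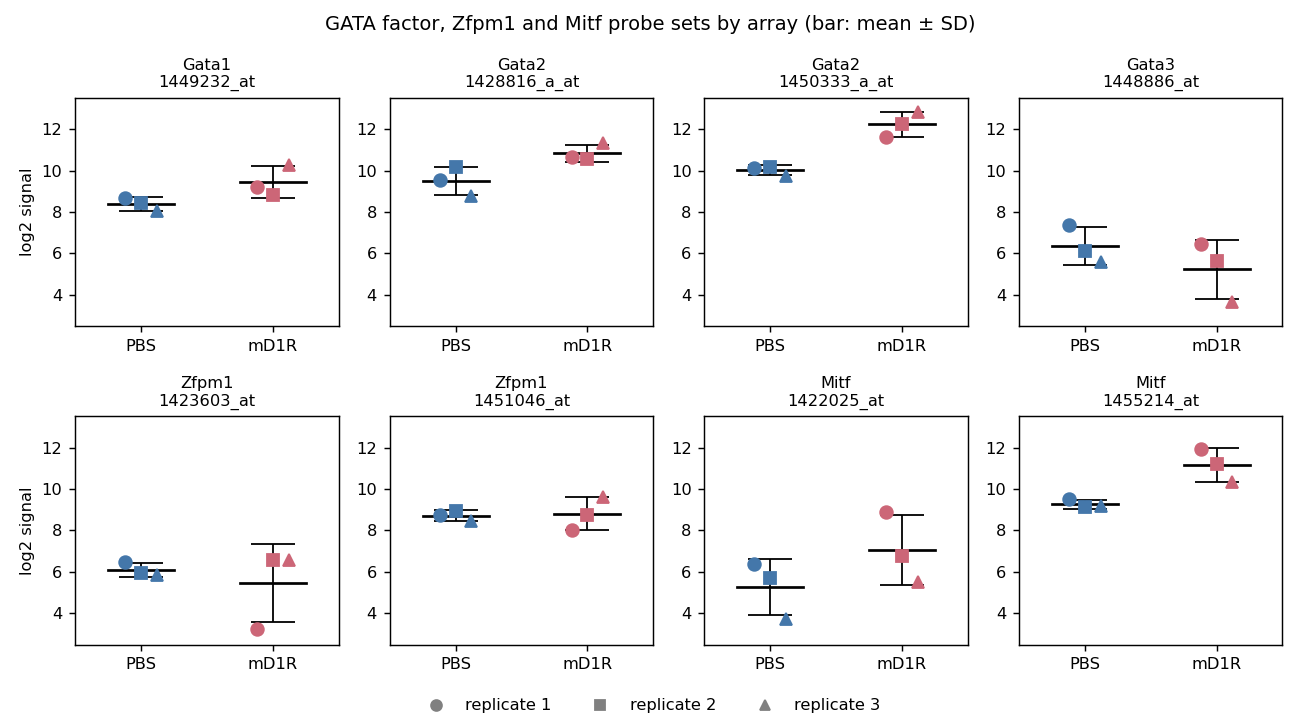
Log2 signal (y axis) of each probe set of Gata1, Gata2, Gata3, Zfpm1 and Mitf in the 3 PBS arrays (blue) and the 3 mD1R arrays (red), 1 symbol per array with the shape giving the replicate; black lines are the group mean ± SD. The groups do not overlap for Gata1, for both Gata2 probe sets and for Mitf 1455214_at, and they overlap in the other 4 panels.

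Gata2, the GATA factor of stem cells and of the mast cell and basophil lineages, had 2 probe sets and both rose. The gene lies on chromosome 6 (GRCm38.p6, 88193891 to 88207032). For the brighter probe set, 1450333_a_at, the signals were 10.12, 10.19 and 9.73 in PBS replicates 1, 2 and 3. With mD1R they were 11.64, 12.23 and 12.84. Every mD1R array lay above every PBS array, and the array of mD1R replicate 3 was the highest. The means of 10.01 ± 0.25 (SD, n = 3) and 12.23 ± 0.60 differed by 2.22 ± 0.30 (SE), with a 95% confidence interval of 1.52 to 2.92, a 4.67-fold rise (adjusted p = 0.0109, limma). Within spike-in batches 1 and 2 the difference was 1.81 and 2.88. Without PBS replicate 3 it was 2.08 and the call was lost (adjusted p = 0.0677), as were those of all other probe sets.

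The other Gata2 probe set, 1428816_a_at, had PBS signals of 9.54, 10.15 and 8.79 and mD1R signals of 10.65, 10.54 and 11.30. Here the gap between the groups was small, because PBS replicate 2 lay just under the lower mD1R arrays. The difference was 1.34 ± 0.36 (SE), a 2.53-fold rise that only just passed (adjusted p = 0.0482), with 1.06 and 1.83 within the batches. Its call was lost without any 1 of the 6 arrays (adjusted p = 0.0542 to 0.147) and in several other fits, among them those with no filter (0.0567), with no variance trend (0.0794) and with array weights (0.0970). Averaged over both probe sets, Gata2 rose by 1.78 ± 0.31 (adjusted p = 0.0157).

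RefSeq gives Gata2 2 transcription starts, an upstream and a downstream one, and the arrays do not tell which was used. The 250 bases before each start are shown because Gata2 is the member that rose on all its probe sets and is known to be regulated by GATA factors itself. They were searched on both strands for the GATA word AGATAA (or AGATAG in its place), for TGATAA (or TGATAG), and for the E-box words that Mitf can bind, CACGTG or the variant CATGTG. Neither window, at chr6:88193641-88193890 and chr6:88198414-88198663 on the plus strand, held any of these letters, so neither has capitals. Their GC contents were 67.2% and 74%, against a median of 52.4% over 32851 such windows.
Gata2 upstream start: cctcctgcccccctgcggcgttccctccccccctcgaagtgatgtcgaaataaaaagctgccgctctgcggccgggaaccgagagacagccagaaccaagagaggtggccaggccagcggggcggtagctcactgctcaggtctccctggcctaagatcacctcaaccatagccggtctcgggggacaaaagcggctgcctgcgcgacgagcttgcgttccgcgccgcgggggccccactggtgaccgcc
Gata2 downstream start: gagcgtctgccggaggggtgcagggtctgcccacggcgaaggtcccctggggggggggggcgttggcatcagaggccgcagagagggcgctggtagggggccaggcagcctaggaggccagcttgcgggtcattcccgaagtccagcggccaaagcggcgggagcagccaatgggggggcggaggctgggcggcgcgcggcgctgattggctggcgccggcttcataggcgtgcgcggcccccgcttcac

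Mitf, the mast cell, osteoclast and pigment cell factor, rose on the brighter of its 2 probe sets. The gene lies on chromosome 6 (97807002 to 98021360) and also has several starts. For probe set 1455214_at the PBS signals were 9.51, 9.11 and 9.18. The mD1R signals were 11.94, 11.20 and 10.32. All mD1R arrays lay above all PBS arrays, but mD1R replicate 3 was here the lowest of its group, the reverse of its place for Gata2. The difference was 1.89 ± 0.38 (SE, n = 3 per group), with a 95% confidence interval of 1.02 to 2.75, a 3.70-fold rise (adjusted p = 0.0206). Within the batches it was 2.06 and 1.18. The call was lost without PBS replicate 1, 2 or 3 (adjusted p = 0.0543, 0.0778 and 0.0893) and without mD1R replicate 2 (0.0758), with differences of 1.81 to 2.01.

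The dimmer Mitf probe set, 1422025_at, had a difference of similar size that did not pass. Its PBS signals were 6.36, 5.72 and 3.75. With mD1R they were 8.90, 6.77 and 5.54, so mD1R replicate 3 lay among the PBS arrays. The difference of 1.79 ± 0.94 (SE; adjusted p = 0.244) had a 95% confidence interval of -0.37 to 3.95, and it was 1.47 and 0.80 within the batches. Without PBS replicate 3 it was 1.03, and without mD1R replicate 1 it was 0.88. The mean over both Mitf probe sets differed by 1.84 ± 0.64 and did not pass either (adjusted p = 0.0916).

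Of the 3 Mitf windows in RefSeq, 2 held a GATA word and none held an E-box word in the 250 bases before the start. Of all windows, 26.5% held a GATA word and 17.6% an E-box word. All 8 windows of the 5 genes were searched, and these 2 were the only ones with a GATA word, a share near that of all windows. The number with an E-box word was 0. The GC contents of the 2 were 58% and 36%, against the median of 52.4%. The windows with a match, at chr6:97929567-97929816 and chr6:97991533-97991782 on the plus strand, are shown with the GATA words in capitals. The former holds TGATAA on its minus strand, 36 bases before the start. The latter holds TGATAG 202 bases and TGATAA 13 bases before the start. A match describes the letters and does not show that a factor binds there.
Mitf middle start: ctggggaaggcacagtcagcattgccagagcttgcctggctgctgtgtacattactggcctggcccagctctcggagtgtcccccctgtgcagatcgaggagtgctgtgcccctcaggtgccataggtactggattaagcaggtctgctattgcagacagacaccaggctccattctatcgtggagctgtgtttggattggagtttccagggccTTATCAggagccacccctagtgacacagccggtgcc
Mitf downstream start: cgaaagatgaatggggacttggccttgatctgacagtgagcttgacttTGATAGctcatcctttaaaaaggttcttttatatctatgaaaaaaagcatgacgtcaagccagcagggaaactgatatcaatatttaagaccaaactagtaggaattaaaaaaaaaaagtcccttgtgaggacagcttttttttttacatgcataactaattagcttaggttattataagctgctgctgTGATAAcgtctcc

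Gata1, the red cell, megakaryocyte, eosinophil and mast cell factor, had a single probe set, 1449232_at, and did not pass. It is encoded on chromosome X (7959260 to 7976663). The PBS signals were 8.67, 8.44 and 8.02, and the mD1R signals 9.20, 8.84 and 10.29. The groups did not overlap, yet the gap between PBS replicate 1 and mD1R replicate 2 was small and mD1R replicate 3 stood well above the other mD1R arrays. The difference of 1.06 ± 0.38 (SE) had a 95% confidence interval of 0.19 to 1.94 (adjusted p = 0.106). It was 0.35 within batch 1 and 2.05 within batch 2, and 0.64 without mD1R replicate 3. In each of the 16 alternative fits the adjusted p stayed above the threshold, between 0.0610 and 0.294.

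The balance of Gata1 to Gata2 was asked within each array, as the log2 difference between their brightest probe sets. It was -1.45, -1.74 and -1.71 with PBS and -2.43, -3.39 and -2.55 with mD1R. All mD1R arrays lay below all PBS arrays, with a shift of -1.16, so the brighter Gata2 probe set had the greater relative increase in these arrays. The exact two-sided permutation p was 0.1, the smallest that 3 against 3 arrays can give. Within the batches the shift was -1.46 and -0.83, and with the mean of both Gata2 probe sets -0.72. The dimmer Gata2 probe set rose by 1.34, near the 1.06 of Gata1, and its own ratio was not taken. The ratio sets change against change and says nothing of which transcript was more abundant.

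Gata3, the T cell and innate lymphoid factor, had low signals that overlapped between the groups. It lies on chromosome 2 (9857078 to 9887953). Probe set 1448886_at gave 7.36, 6.13 and 5.58 with PBS and 6.43, 5.63 and 3.64 with mD1R. Only mD1R replicate 3 lay below all PBS arrays. The difference of -1.12 ± 0.76 (SE) did not pass (adjusted p = 0.371), and its 95% confidence interval of -2.88 to 0.65 includes both a clear fall and a small rise. It was -1.33 and -2.21 within the batches, and a fit blocked on these batches gave -1.77, which passed (adjusted p = 0.0469). Without mD1R replicate 3 it was -0.32, and without PBS replicate 1 it was -0.62. Relative to Gata2 within the same array, Gata3 was at -2.76, -4.06 and -4.15 with PBS and at -5.21, -6.60 and -9.19 with mD1R. This is a shift of -3.34 with no overlap (exact two-sided permutation p = 0.1, the smallest possible). The shift takes in the rise of 2.22 of the brighter Gata2 probe set. With mD1R the Gata3 mean was 5.23, below the filter of 5.27, so Gata3 was kept only through the PBS arrays. The sizes of its difference and of this shift are therefore uncertain.

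Zfpm1, the FOG1 cofactor on chromosome 8 (122281856 to 122337862), gave no shared direction on its probe sets, which cite the same source transcript. The brighter, 1451046_at, had PBS signals of 8.73, 8.95 and 8.45 and mD1R signals of 8.02, 8.76 and 9.62. The mD1R arrays thus lay below, among and above the PBS arrays. The difference was 0.09 ± 0.39 (SE; adjusted p = 0.908), with a 95% confidence interval of -0.81 to 0.98, which spans falls and rises of just under 2-fold. Within the batches it was -0.34 and 0.91, which differ in sign.

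The dimmer Zfpm1 probe set, 1423603_at, gave 6.50, 5.96 and 5.83 with PBS and 3.27, 6.58 and 6.55 with mD1R. A single array, mD1R replicate 1, was far below the other 5. The difference of -0.63 ± 0.85 (SE; adjusted p = 0.667) became 0.47 without that array. Within the batches it was -1.58 and 0.66.

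**Figure D2:**
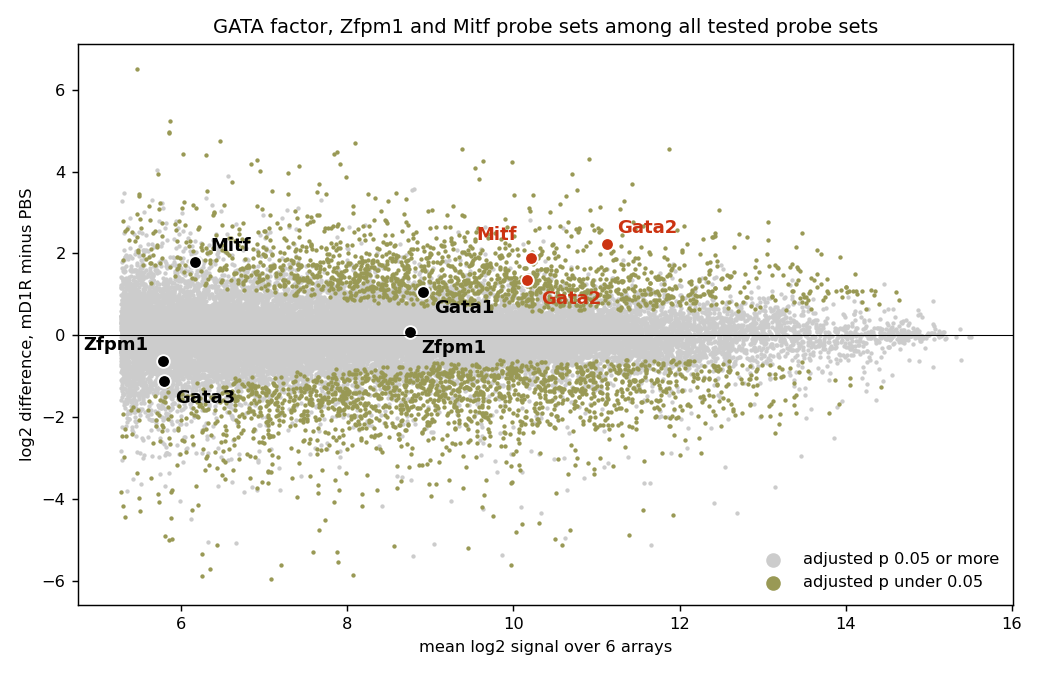
Mean log2 signal over 6 arrays (x axis) against the log2 difference of mD1R minus PBS (y axis) for all 27022 tested probe sets (small dots, olive where adjusted p is under 0.05), with the 8 probe sets of the 5 genes as large dots, red where they passed. Gata2 (2.22 and 1.34) and the brighter Mitf probe set (1.89) lie among the called probe sets, while Gata1, Gata3, Zfpm1 and the dimmer Mitf probe set lie in the grey cloud or at its edge.

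**Figure D3:**
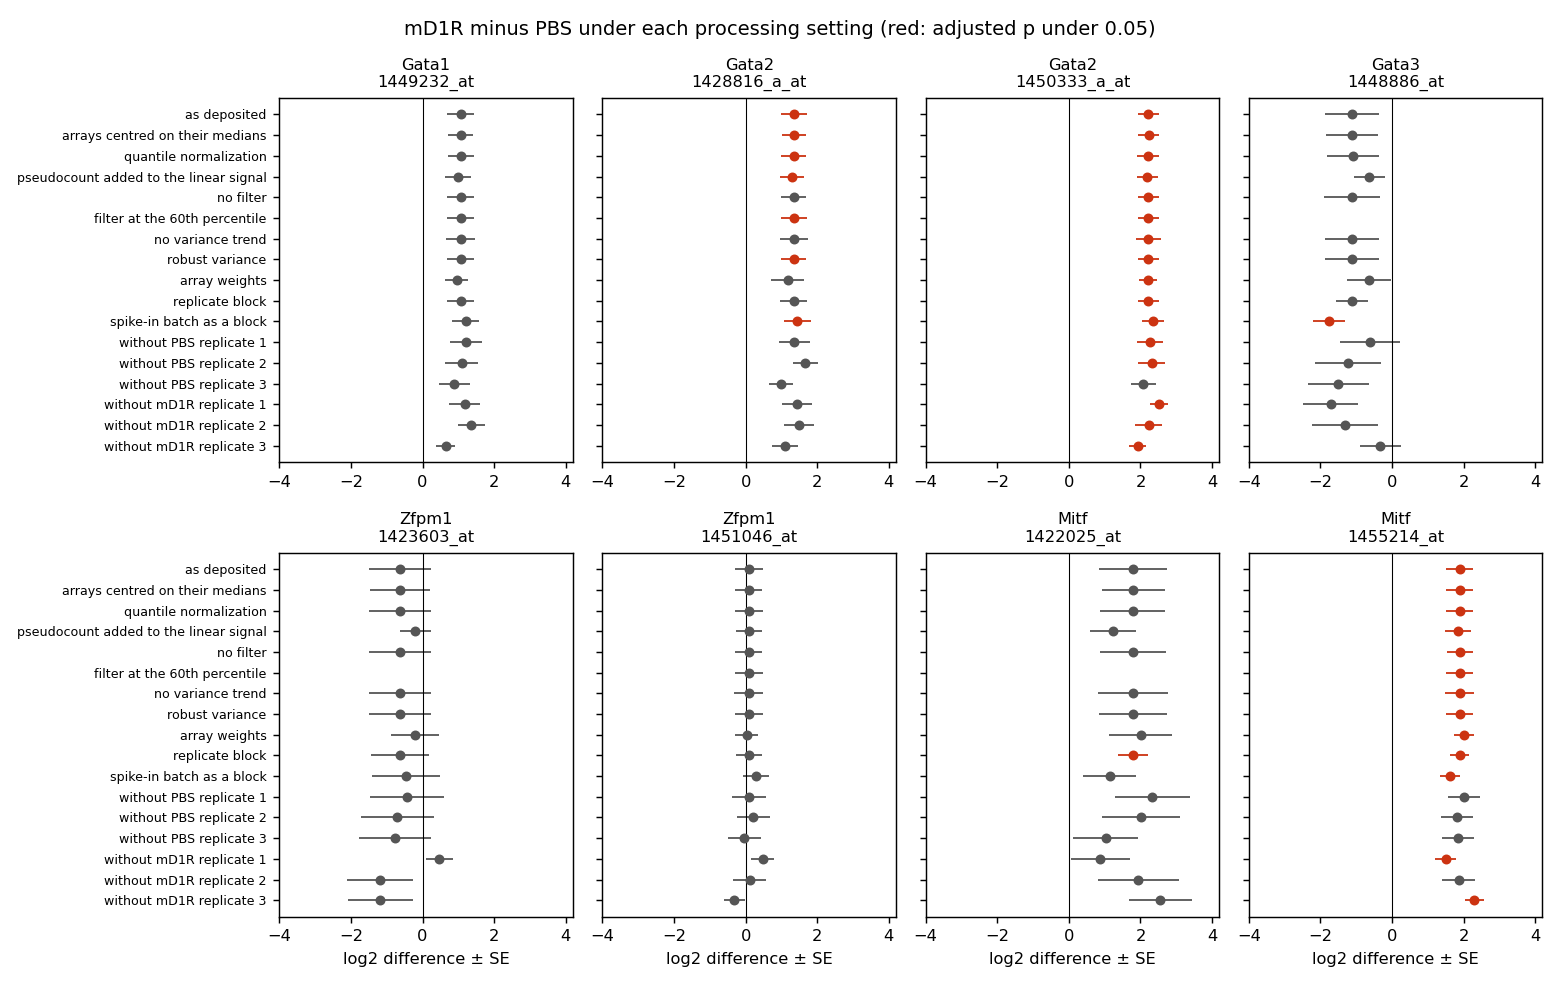
Log2 difference of mD1R minus PBS ± SE (x axis) of each probe set in the fit to the values as deposited and in 16 alternative fits (y axis), red where adjusted p was under 0.05; a missing dot means that the probe set was below that filter. Gata2 1450333_a_at stays between 1.92 and 2.52 and loses its call only without PBS replicate 3, whereas Zfpm1 crosses 0.

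The arrays of the mD1R group did not order the members alike. Relative to the PBS mean, mD1R replicate 3 had the highest value of its group for Gata1 (1.91), for both Gata2 probe sets (2.82 for the brighter) and for the brighter Zfpm1 probe set (0.90). It had the lowest for both Mitf probe sets (1.06 for the brighter) and for Gata3 (-2.71). Among all 1046 named genes that rose, mD1R replicate 3 was highest in 14.9% and lowest in 65.8%. This array is also the only mD1R array in spike-in batch 2. Among the PBS arrays, the batch 2 signals of Gata1 were 8.44 and 8.02 against 8.67 in batch 1. For the brighter Gata2 probe set they were 10.19 and 9.73 against 10.12. For Gata3 they were both lower, at 6.13 and 5.58 against 7.36. The same held for Mitf, at 9.11 and 9.18 against 9.51 on the brighter probe set and 5.72 and 3.75 against 6.36 on the dimmer. Within the mD1R group, batch and replicate 3 cannot be told apart.

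The genes whose profile over the 6 arrays was most like each member were found by the root-mean-square distance between log2 profiles, each centred on its own mean, among 12320 named genes. For Gata2 they were Rab38, a Rab GTPase of lysosome-related organelles (distance 0.17), Slc18a2, the vesicular amine transporter of mast cells (0.22), and the fatty acid desaturase gene Fads2 (0.23). For Mitf they were Spred1, an inhibitor of Ras signalling (0.10), the cholesterol transporter gene Abcg1 (0.11) and the cholesterol hydroxylase gene Ch25h (0.11). For Gata1 they were Tespa1 (0.10), the sphingosine-1-phosphate transporter gene Spns2 (0.10) and Arhgef25 (0.15), and for Zfpm1 Tbx6 (0.11), Myo1d (0.14) and Nags (0.17). For Gata3 they were Spic (0.21), Ak8 (0.27) and Zfp882 (0.38). Among the members themselves, Gata1 was nearer to Zfpm1 (0.60) and Gata2 (0.66) than to Mitf (0.95) or Gata3 (1.68). These are likenesses over 6 arrays that share 2 conditions and carry no test.

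Genes linked to the members were counted by lists, each gene by its brightest tested probe set. Over all named genes 8.49% were higher and 7.09% lower with mD1R, with a median difference of 0.09. The plot of the lists shows the medians of the mast cell, the macrophage and the osteoclast and lysosome genes to the right of 0, and those of the B cell and natural killer genes to the left.

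**Figure D4:**
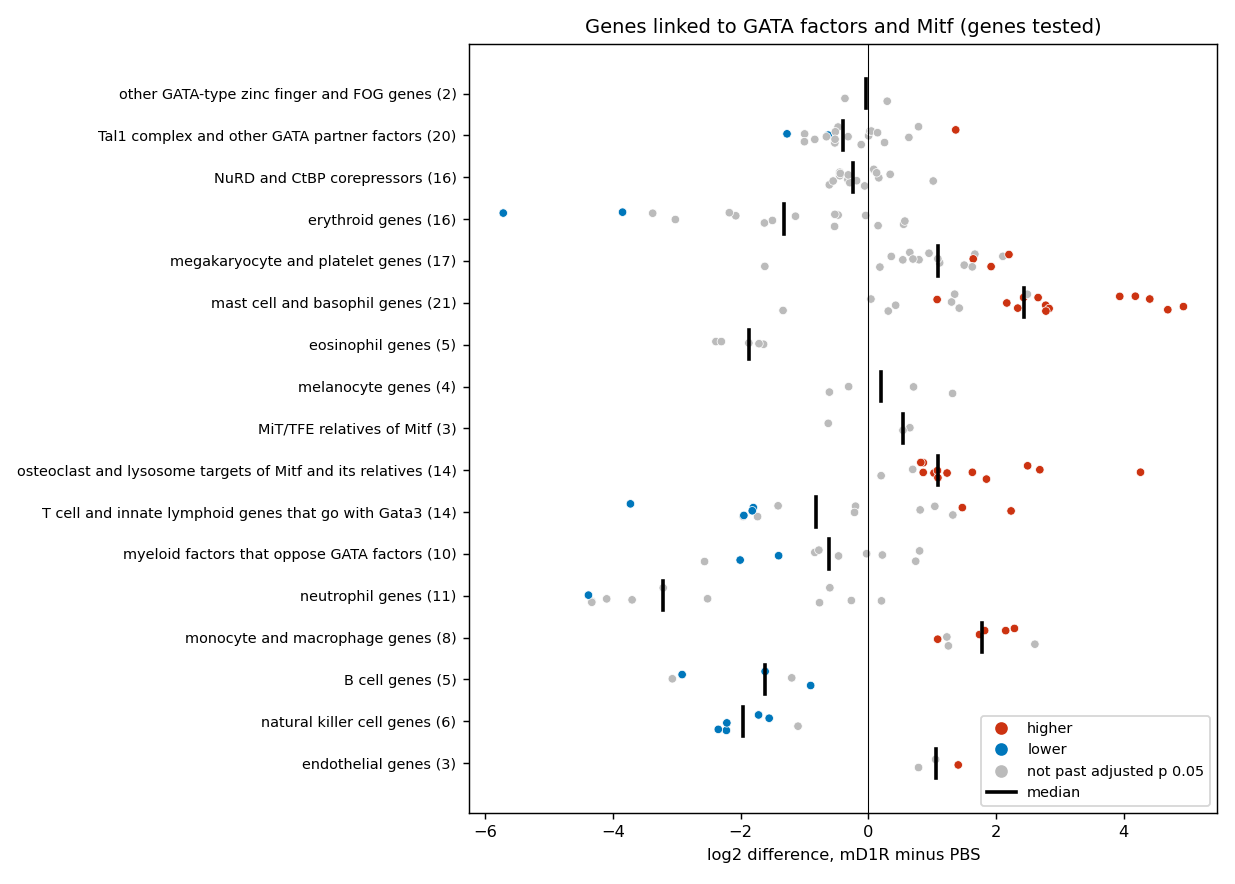
Log2 difference of mD1R minus PBS (x axis) for each tested gene of 17 lists (y axis, number of genes tested in brackets), red where higher and blue where lower at adjusted p under 0.05, with the list's median as a black bar. Of 14 osteoclast and lysosome genes 12 are red and of 21 mast cell and basophil genes 13 are red, while the 16 corepressor genes are all grey.

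The other GATA and FOG genes gave no call. Gata4, Gata5, Gata6 and Zfpm2, which act mainly outside blood, were all below the filter, at 2.84 to 6.05 across the arrays. At an unadjusted p under 0.05, 0 of the 2 tested passed. Of these, Trps1 differed by 0.30 ± 0.43 and Gatad1 by -0.37 ± 0.24 (adjusted p = 0.696 and 0.343).

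Among 20 partner factors of the Tal1 complex, with which Gata1 and Gata2 share many sites, 1 rose and 2 fell, with a median of -0.40. Tal1, the helix-loop-helix core of the complex, rose from 9.61, 9.43 and 9.31 to 10.52, 10.75 and 11.18. The mD1R arrays were clear of the PBS arrays, and the difference was 1.37 ± 0.22 (adjusted p = 0.0127), with 1.03 and 1.81 within the batches. Erg, an Ets factor, fell by 1.27 ± 0.25 (adjusted p = 0.0193), and Cbfb, the partner of Runx1, by 0.63 ± 0.15 (adjusted p = 0.0369). The scaffold gene Ldb1 differed by 0.00 ± 0.19, the bridge gene Lmo2 by -0.53 ± 0.22, Fli1 by -0.66 ± 0.21 and the repressor gene Gfi1b by 0.79 ± 0.45, and none of them passed. Runx1 differed by 0.63 ± 0.32 on its brightest probe set without passing, while 2 of its 5 other probe sets passed as higher. Tcf3 likewise did not pass on its brightest probe set (adjusted p = 0.0791), while its other probe set passed as lower (-1.30). At an unadjusted p under 0.05, 1 was higher and 9 lower in this list. Tal1 lost its call without PBS replicate 2 or 3, both falls were lost without any 1 PBS array, and 7 partner genes passed as lower without mD1R replicate 3.

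Of 16 NuRD and CtBP corepressor genes, whose products work with Zfpm1, 0 passed in either direction (median -0.24), while 1 was higher and 3 lower at an unadjusted p under 0.05. In other scalings 1 gene passed as higher with arrays centred on their medians and, with quantile normalization, 1 as higher and 2 as lower. The helicase gene Chd4 differed by -0.18 ± 0.22 and Mta1 by 0.09 ± 0.26. Nearest to the threshold were the methyl-CpG binding gene Mbd2 (-0.61 ± 0.17; adjusted p = 0.0530) and Chd3 (1.02 ± 0.28; adjusted p = 0.0532).

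Mast cell and basophil genes, many of them bound by Gata2, Gata1 or Mitf, rose in 13 of 21 cases and fell in 0, with a median of 2.43. Mcpt4 and Mcpt2, chymase family proteases, rose by 4.94 ± 1.08 and 4.69 ± 0.88 (adjusted p = 0.0265 and 0.0182) on the fit's scale. Mcpt4 and Tpsg1, both among the 13, had PBS means of 3.39 and 4.09, below the filter of 5.27, and so were kept only through the mD1R arrays. Their PBS levels are not shown to be above background and the sizes of their rises are uncertain. Tpsb2, which did not pass, was kept in the same way (PBS mean 4.28). Kit, the stem cell factor receptor of the gate and of mast cells, had PBS signals of 9.97, 8.85 and 9.21 and mD1R signals of 11.37, 11.13 and 9.58, a difference of 1.35 ± 0.49 that did not pass (adjusted p = 0.108). The histamine enzyme gene Hdc, singled out after its values were seen, went the other way at -1.34 ± 0.55 without passing (adjusted p = 0.15). The summed linear signal of 22 list genes was 76780 to 82710 with PBS and 147300 to 182800 with mD1R, and no gene was listed at 0. The part of more mast cells or basophils in the rise of Gata2 and Mitf was not tested. The count of 13 became 10, 4 and 0 when PBS replicate 1, 2 or 3 was left out, and 10, 6 and 14 when mD1R replicate 1, 2 or 3 was; 1 gene passed as lower without mD1R replicate 3.

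The osteoclast and lysosome genes that Mitf and its relatives are known to act on rose in 12 of 14 cases and fell in 0, with a median of 1.09 and batch medians of 1.38 and 0.90. Atp6v0d2, a proton pump subunit, had PBS signals of 8.97, 6.49 and 7.04 and mD1R signals of 13.40, 12.68 and 9.21. The mD1R arrays lay above the PBS arrays, mD1R replicate 3 by little, and the difference was 4.26 ± 1.07 (adjusted p = 0.0392). The cathepsin gene Ctsk rose by 2.69 ± 0.38 (adjusted p = 0.0113). The other 10 that passed, among them the lysosomal channel gene Mcoln1 (1.23 ± 0.19) and the membrane protein gene Lamp1 (1.03 ± 0.20), were named after their values were seen. Oscar and Neu1 did not pass. Macrophages also express these genes, and of 8 monocyte and macrophage markers 5 rose and 0 fell (median 1.78), with Msr1 at 2.29 ± 0.31 and Ms4a7 at 2.15 ± 0.21; 3 passed without PBS replicate 1 or 2 or mD1R replicate 2 and 0 without PBS replicate 3. Their summed signal was 28360 to 38100 with PBS and 73270 to 131000 with mD1R, with no marker at 0, and its part in the lysosome genes or in Mitf was not tested. The count of 12 became 4, 1 and 0 when PBS replicate 1, 2 or 3 was left out, and 7, 2 and 13 when mD1R replicate 1, 2 or 3 was.

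The relatives Tfe3, Tfeb and Tfec, which recognise the same E-box words as Mitf, did not pass in limma, while 1 was higher and 1 lower at an unadjusted p under 0.05. Tfe3 differed by 0.65 ± 0.25, Tfeb by -0.63 ± 0.20 and Tfec by 0.54 ± 0.48 (adjusted p = 0.123, 0.0759 and 0.494). Pigment cell genes gave 0 calls among 4 tested (unadjusted, 1 was higher and 0 lower), and 9 others of the list, Tyr, Tyrp1 and Dct among them, lay below the filter. The pigment cell factor gene Sox10 differed by 1.32 ± 0.41 (adjusted p = 0.0702) and Pmel by -0.61 ± 0.41 (adjusted p = 0.358).

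Within the mast cell list, the genes that rose divided by which mD1R array was highest, as Gata2 and Mitf did. In mD1R replicate 3, 6 of the 13 had their highest and 7 their lowest value of the group. The 6 were the IgE receptor genes Fcer1a and Ms4a2, Cpa3, the basophil protease gene Mcpt8, Slc18a2 and Cd200r3. The 7 included the chymases Mcpt1, Mcpt2, Mcpt4 and Cma1 and the serotonin enzyme gene Tph1. Tpsg1 was also among the 7, and like Mcpt4 it was kept only through the mD1R arrays. For Fcer1a the mD1R arrays lay 1.92, 2.33 and 3.73 above the PBS mean in replicates 1, 2 and 3, and for Mcpt1 5.66, 5.17 and 1.72. Of the 12 osteoclast and lysosome genes that rose, 0 had their highest and 10 their lowest value in mD1R replicate 3. This pattern was picked out after the values were seen, and the background of 14.9% highest and 65.8% lowest stands beside it.

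**Figure D5:**
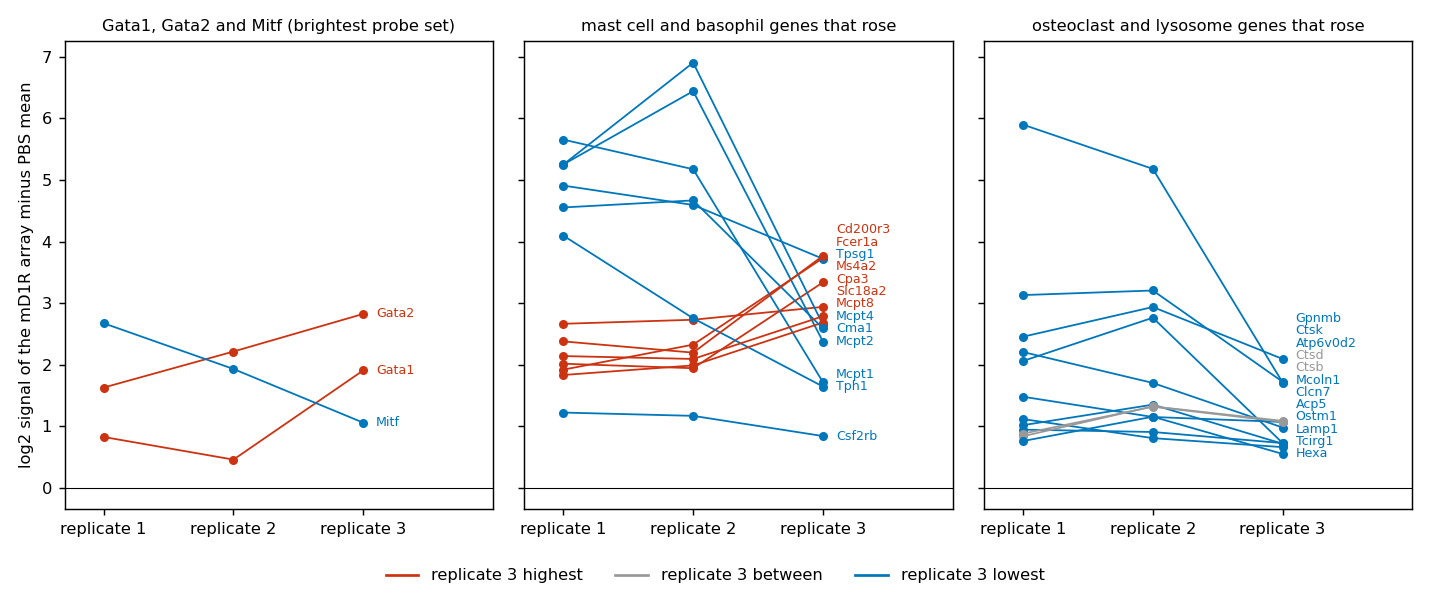
Log2 signal of each mD1R array minus the PBS mean (y axis) in replicates 1 to 3 (x axis; the replicates have no order and lines only join the values of a gene), red where replicate 3 was highest and blue where it was lowest. Gata1, Gata2, Fcer1a and Cd200r3 were highest in replicate 3 (Gata2 at 2.82), whereas Mitf, Mcpt1 and Atp6v0d2 were lowest there (Mitf at 1.06).

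Red cell genes, classic Gata1 and Zfpm1 targets, fell in 2 of 16 cases and rose in 0, with a median of -1.32. The falls were Slc4a1, the red cell anion exchanger (-5.72 ± 1.45; adjusted p = 0.0399), and the carbonic anhydrase gene Car1 (-3.85 ± 0.89; adjusted p = 0.0311). Within the batches the differences were -8.91 and -1.28 for Slc4a1 and -6.16 and -1.73 for Car1. Slc4a1 had an mD1R mean of 3.49, below the filter, so it was kept only through the PBS arrays and the size of its fall is uncertain. Klf1, the red cell factor, had PBS signals of 9.73, 7.26 and 7.50 and mD1R signals of 7.44, 7.20 and 8.43, a difference of -0.47 ± 0.65. PBS replicate 1 stood above all others for Klf1 and for the list, whose summed signal was 24020 there, 7941 and 8019 in the other PBS arrays and 6375 to 8293 with mD1R. The median was -2.92 in batch 1, which holds that array, and -0.04 in batch 2, and the count of falls was 6 without mD1R replicate 3 and 0 without any other array.

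Megakaryocyte and platelet genes, another set of Gata1 and Zfpm1 targets, rose in 3 of 17 cases and fell in 0 (median 1.09, with 1.31 and 1.37 within the batches). The platelet chemokine gene Pf4 rose by 1.92 ± 0.26, Gp9 by 1.64 ± 0.28 and the granule Rab gene Rab27b by 2.20 ± 0.49 (adjusted p = 0.0109, 0.0147 and 0.0278). A fit blocked on the spike-in batches called 9 of the 17 as higher. Leaving out PBS replicate 3 gave a count of 0, leaving out mD1R replicate 2 gave 1, and leaving out mD1R replicate 1 gave 6. Without mD1R replicate 3, 3 genes passed as higher and 1 as lower. At an unadjusted p under 0.05, 9 were higher and 1 lower in this list. Nfe2, singled out after its values were seen, went the other way at -1.62 ± 0.67 without passing (adjusted p = 0.15). Eosinophil genes, which also depend on Gata1, gave 0 calls among 5 (unadjusted, 0 were higher and 1 lower) and were set apart by array, with 3 passing as lower without mD1R replicate 3. Prg2 had PBS signals of 14.03, 10.70 and 10.85 and mD1R signals of 7.93, 7.79 and 12.70, so PBS replicate 1 and mD1R replicate 3 were high, and Siglecf differed by -1.64 ± 0.58 (adjusted p = 0.101).

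T cell and innate lymphoid genes that go with Gata3 moved both ways, with 2 of 14 higher and 4 lower (median -0.82). Il7r, the interleukin 7 receptor gene, rose by 2.24 ± 0.45 (adjusted p = 0.0208) and the nuclear receptor gene Rora by 1.47 ± 0.35 (adjusted p = 0.0338). Cd3d and Cd2, T cell surface genes, fell by 3.73 ± 0.34 and 1.95 ± 0.38 (adjusted p = 0.00778 and 0.0195). Their mD1R means of 5.05 and 5.18 lay below the filter, as did that of Ncr1 (5.07), so these genes were kept only through the PBS arrays and the sizes of their falls are uncertain. Bcl11b, a T cell commitment factor, was below the filter. Of 6 natural killer genes 5 fell, led by Ncr1 (-2.35 ± 0.47), Klrd1 (-2.22 ± 0.40) and Il2rb (-2.22 ± 0.42), and of 5 B cell genes 3 fell, Ebf1 (-2.92 ± 0.39), Blk (-1.62 ± 0.31) and Cd79b (-0.90 ± 0.22). The summed signal of the T cell and innate lymphoid list was 8981 to 11030 with PBS and 12240 to 20610 with mD1R, although the median difference was below 0. A linear sum is weighted to its brightest genes. Il7r was the brightest of the list in every mD1R array, at 14.13, 13.08 and 12.43, against 11.64, 10.67 and 10.62 with PBS. The sum without Il7r was not taken, so a rise of the list as a whole is not shown. The count of natural killer falls was 1, 0 and 0 when PBS replicate 1, 2 or 3 was left out and 4, 1 and 5 when mD1R replicate 1, 2 or 3 was, and that of B cell falls was 1, 1 and 0 and then 2, 2 and 4. Without PBS replicate 3 none of the T cell and innate lymphoid genes passed either, and without PBS replicate 2 or mD1R replicate 2 that list had 0 higher and 1 lower.

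Of 10 factors listed as possible opponents of GATA factors in myeloid cells, 0 rose and 2 fell, with a median of -0.62. Whether each of the 10 opposes GATA factors is not established here. Both falls were lost without PBS replicate 2 or 3, and 4 passed as lower without mD1R replicate 3. Klf4, a monocyte factor, fell by 2.01 ± 0.33 (adjusted p = 0.0131) and Id1, an inhibitor of helix-loop-helix factors, by 1.41 ± 0.36 (adjusted p = 0.0401). Spi1 (PU.1), which Gata1 and Gata2 antagonise, had PBS signals of 11.21, 11.93 and 11.97 and mD1R signals of 10.61, 10.69 and 11.30, a difference of -0.84 ± 0.28 that did not pass (adjusted p = 0.0855). Cebpa differed by 0.74 ± 0.33 (adjusted p = 0.176). Among 11 neutrophil genes 1 fell, Mmp9 (-4.38 ± 1.13; adjusted p = 0.0425), where the count was 7 without mD1R replicate 3 and 0 without any other array, and the summed signal of the list was 262100 to 328200 with PBS and 56370, 131100 and 324100 in mD1R replicates 1, 2 and 3.

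Endothelial transcripts were looked at because the cells had grown on human endothelium, which itself expresses GATA2 and GATA3. Of 3 tested genes 1 rose, Pecam1 (1.41 ± 0.31; adjusted p = 0.0279), which platelets and myeloid cells also express (lost without PBS replicate 1, 2 or 3 or mD1R replicate 2), and 4 were below the filter. Cdh5, the endothelial cadherin, was at 6.14 to 6.82 with PBS and at 2.57 to 4.89 with mD1R, with no test since it lay below the filter. The summed signal of 7 list genes was 768.2 to 1009 with PBS and 1190 to 2577 with mD1R, and none was at 0. In mD1R replicate 3, where the sum was highest, Pecam1 and Esam were the brightest of the list, at 10.47 and 9.78. A linear sum is weighted to such genes, so a rise of the list as a whole is not shown. The part of feeder RNA in the Gata2 or Gata3 signals was not tested.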

How the data were processed

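The 6 arrays, 3 with PBS and 3 with mD1R, were grouped by their titles. The authors deposited log2 signals for 45101 probe sets, 64 of them controls. Per the submitters' processing notes they were made with MAS5, of no stated version. The deposited values have a 2% trimmed mean of 500 on the linear scale in every array, which shows scaling of each array on its own, and linear values under 1 appear as log2 0. No detection call enters here, so dim probe sets may be background and their fold changes are imprecise. Probe sets were named by the platform annotation. Of those that are not controls 34945 had 1 symbol, 932 several and 9160 none. Through their Entrez IDs 34741 matched the RefSeq gene table (GRCm38.p6) and 0 symbols changed. No per-array depth exists, and the number of arrays limits the precision.

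The groups were compared on the deposited values in R 4.3.3 by limma 3.58.1 (a two-sided moderated test, eBayes with a variance trend and no block). The 27022 probe sets tested had a mean of at least 5.27, the 40th percentile, and Benjamini-Hochberg adjustment ran over this whole set. A gene in a list, 12320 in all, is its brightest kept probe set with 1 symbol. From each list the text names every gene that passed if these were 4 or fewer, otherwise the 2 largest rises and falls, or the 2 smallest p where none passed, and a few genes with a known link to the members. The members and lists were chosen with earlier results of these data known. The fit was tested on simulated data. Promoter windows come from RefSeq (GRCm38.p6), with all 5 genes found. Alternatives covered scaling, a pseudocount of 32, filters at none and the 60th percentile, the variance model, array weights, blocks and leaving out each array.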

Additional observations from a re-analysis of the deposited data

How the results depend on the processing

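The brighter Gata2 probe set kept its call in 15 of 16 alternative fits and the brighter Mitf probe set in 12 of 16, and the directions of Gata1, Gata2, Gata3 and Mitf held in all. The count of member probe sets past the threshold, 3, lay between 0 and 2 when 1 array was left out. Over all probe sets the 3413 calls became 2213 with no variance trend, 6508 with array weights, and 0 to 5554 without 1 array. The 0 came without PBS replicate 3, where 5853 had an unadjusted p under 0.05. The 56 list genes past the threshold became 88 with array weights and 0 to 86 without 1 array. Zfpm1 turned its sign. For 1423603_at the difference was 0.66 within spike-in batch 2 and -1.19 to 0.47 without 1 array. For 1451046_at it was -0.34 within batch 1 and -0.32 to 0.47 without 1 array. The shift in the Gata1 to Gata2 ratio was -0.72 with the mean of both Gata2 probe sets, and that of Gata3 to Gata2 was -5.09 within batch 2. Apart from the fits with fewer arrays, the cause of these changes was not tested.

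Whether the replicate numbers pair the arrays cannot be decided from 3 arrays per group. The deviations of same-numbered arrays correlated at 0.31, 0.03 and 0.13, and those of arrays with different numbers at -0.22 to 0.15. Fitting the replicate block gave 4619 calls over all probe sets and 3 among the 8, with Mitf 1422025_at called (adjusted p = 0.0308) and Gata2 1428816_a_at not (0.0551). Low signal limits Gata3 and the dimmer Zfpm1 and Mitf probe sets, which fell out with the filter at the 60th percentile.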
